A study of Mus musculus with 28 samples.

Results

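The miR-30 family was examined in plasma extracellular vesicles (EVs) through its 5p arms, listed in the table as mmu-miR-30a-5p, mmu-miR-30b-5p, mmu-miR-30c-5p, mmu-miR-30d-5p and mmu-miR-30e-5p (mmu, for mouse, is left out from here on). These members were chosen by name as 5p arms that share a seed, and the rule uses no measured value. All 5 were present among 1240 miRNA entries, of which 701 are mature arms, in a count table of 18710 non-coding RNA entries. The study asked how neuromuscular electrical stimulation (NMES), which contracts the leg muscles through the skin, changes RNA in muscle, brain and plasma EVs of normal and Klotho-deficient mice, and only the plasma EV libraries are described here. There were 8 KlHET NMES, 8 KlHET control, 6 WT NMES and 6 WT control libraries, 1 per mouse. KlHET mice were heterozygous for a mutant Kl allele (tm1Lex), so that 1 intact copy of Klotho remained, and WT mice were wild type. The study's design gives an age of 2 months. NMES mice were stimulated at 9 mA on both hind legs under 2.5% isoflurane in 5 sessions, control mice received 15 minutes of the same anesthesia on each of those days, and blood was taken 24 hours after the last session. EVs came from 400 µL of plasma.

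A miRNA is a short RNA that an Argonaute protein holds and that pairs with messenger RNAs mainly through its seed, bases 2 to 8 from the 5′ end, which lowers translation and the stability of the target. Members of a family share the seed and differ in the rest of the sequence, so they can act on overlapping sets of targets. The miR-30 family is abundant in kidney, heart, skeletal muscle and endothelium, and in kidney it is known for its role in podocytes.

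The mature sequences below show what the members have in common and where they part. They are from RefSeq (GRCm38.p6), which gave a sequence for 3 of the 5 members, and capitals mark the seed.
miR-30a-5p: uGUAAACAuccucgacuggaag
miR-30c-5p: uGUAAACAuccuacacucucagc
miR-30e-5p: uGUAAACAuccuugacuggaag
miR-384-5p: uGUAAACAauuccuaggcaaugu

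Among these members the first 12 bases were identical. miR-30a-5p and miR-30e-5p are both 22 bases long and differ at 1 position, C13U (positions counted from the 5′ end, miR-30a-5p first). miR-30c-5p is 23 bases long and differs from either of them at 5 of the aligned positions. The seed GUAAACA occurred in 4 of 1679 mature mouse miRNA names of the RefSeq table (0.238%), and the one outside the family was miR-384-5p, which had 4 counts in 2 libraries in all.

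The members come from separate hairpins. miR-30a-5p lies at chr1:23272274-23272295 on the plus strand, in the Mir30a hairpin, with no other gene annotated over it. miR-30c-5p is encoded by a pair of loci with the same mature sequence, at chr1:23291714-23291736 on the plus strand (Mir30c-2, in an exon of the lincRNA Gm27028) and at chr4:120769584-120769606 on the minus strand (Mir30c-1, in an intron of Nfyc), and the table gives 1 count for both. miR-30e-5p lies at chr4:120772660-120772681 on the minus strand, also in an intron of Nfyc, which encodes a subunit of the NF-Y transcription factor. Mir30f is annotated on the opposite strand of the Mir30e hairpin. How reads that match several places were counted is not stated, so the counts of near-identical arms are uncertain.

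Library totals ranged from 531261 to 3389206 counts (median 887415), of which 8992 to 96496 were miRNA counts. The 5 members together had 10354 counts over 28 libraries, 15 to 1710 per library (median 259.5), or 0.0227% to 2.46% of a library's miRNA counts. KlHET control replicate 2 (library J3517) held only 15 miR-30 counts, and its TMM scaling factor was 0.0346 against 0.774 to 1.67 in the other libraries. In J3517 the entry miR-8117 alone held 65.7% of the 66106 miRNA counts. WT control replicate 5 (A3206) was the deepest, with 1710. Levels are CPM (a count scaled to a fixed library total) after TMM scaling over the miRNA entries. All WT libraries have names starting with A and all KlHET libraries names starting with J, so genotype and whatever separates these series of names cannot be told apart. Lists of miRNAs known from erythrocytes, platelets and leukocytes, liver, muscle, neurons and kidney epithelium were all detected, and fewer EVs from a source and less of a miRNA per EV cannot be told apart in plasma.

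**Figure D1:**
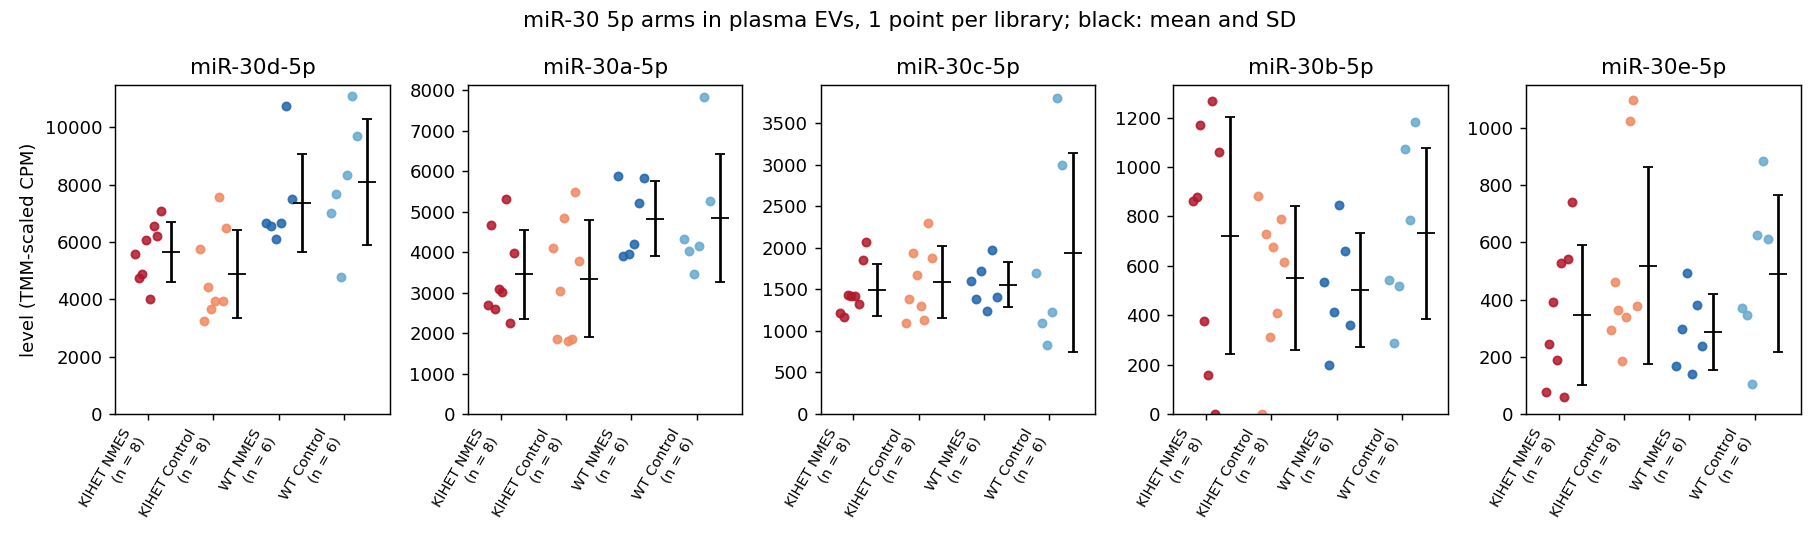
Level of each miR-30 5p arm in TMM-scaled CPM, 1 point per library, with the mean and SD in black, in KlHET NMES (n = 8), KlHET control (n = 8), WT NMES (n = 6) and WT control (n = 6) mice; each panel has its own axis from 0. For miR-30d-5p, 15 of 16 KlHET libraries lay below the WT median, though the ranges of both genotypes overlap. The points of every member also overlap between NMES and control mice.

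The family was dominated by miR-30d-5p and miR-30a-5p. miR-30d-5p averaged 6324 ± 2009 CPM (SD, n = 28) and ranked 34th by mean level among the 129 miRNA entries with enough counts to test. miR-30a-5p averaged 4016 ± 1414 CPM and ranked 43rd. miR-30c-5p followed with 1629 ± 617 CPM, at rank 65. miR-30b-5p (628 ± 353 CPM, rank 100) and miR-30e-5p (414 ± 270 CPM, rank 113) were near the low end of the tested entries. Within libraries the order was steady at the top: counts of miR-30d-5p exceeded those of miR-30a-5p in 26 of 28 libraries, and those of miR-30a-5p exceeded miR-30c-5p in 28 of 28. The lowest neighbours were not separated in this way, since miR-30b-5p was above miR-30e-5p in 19 libraries and below it in 9, and their mean levels differed by less than 1 SD of either.

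As shares of the pooled 10354 counts, miR-30d-5p made up 48.2% (exact 95% interval 47.3% to 49.2%), miR-30a-5p 31.2% (30.3% to 32.1%), miR-30c-5p 12.7% (12.1% to 13.4%), miR-30b-5p 4.75% (4.35% to 5.18%) and miR-30e-5p 3.02% (2.70% to 3.37%). These intervals cover counting error only and not the spread between mice. The share of miR-30d-5p by library ran from 40.4% to 57.1% (median 47.1%) in KlHET NMES mice, 29.0% to 63.2% (median 47.0%) in KlHET control mice, 44.8% to 56.6% (median 49.9%) in WT NMES mice and 45.4% to 57.1% (median 49.7%) in WT control mice. Group medians of this share thus lay close together, and the widest range was in KlHET control mice.

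**Figure D2:**
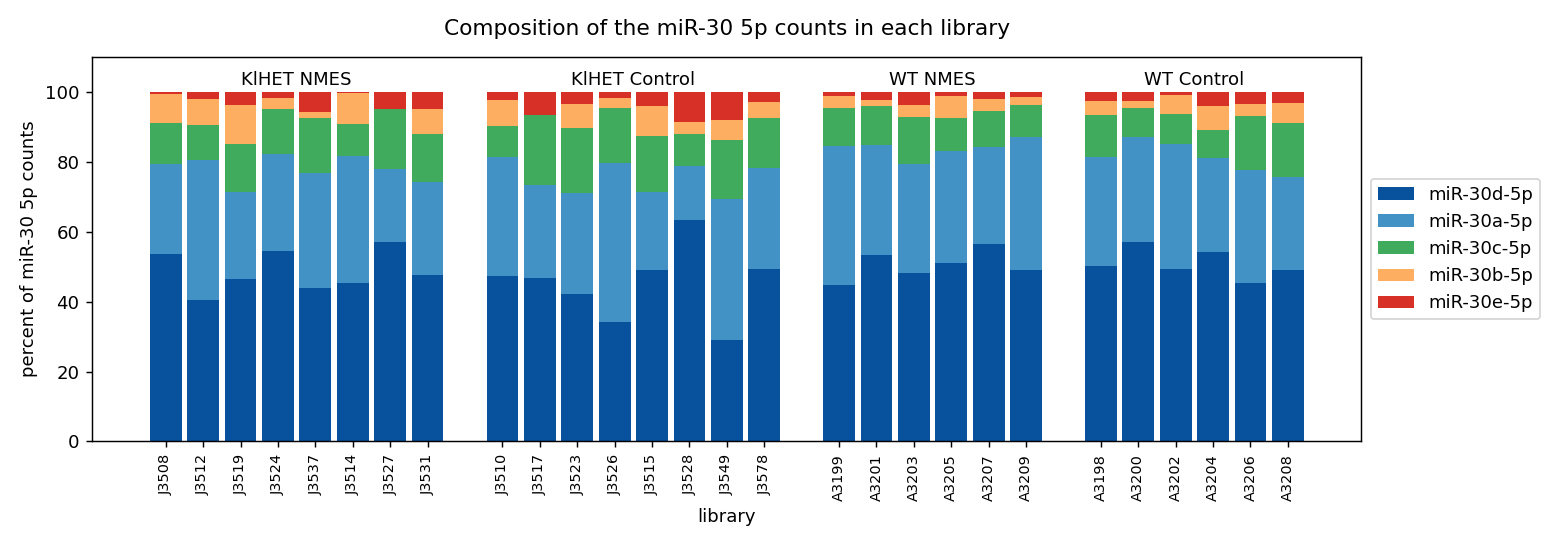
Percent of the miR-30 5p counts on each member in each library, by group. miR-30d-5p and miR-30a-5p are the 2 largest blocks in every bar, and miR-30a-5p exceeds miR-30d-5p in 2 of 28 libraries.

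The precision differed greatly between members. At its median of 133 counts per library, miR-30d-5p had a relative counting error of 8.67%, against a coefficient of variation of 31.8% over the 28 libraries. At its median of 6 counts, miR-30e-5p had a counting error of 40.8%, against a coefficient of variation of 65.4%. miR-30b-5p was at 0 counts in 2 libraries, 1 KlHET NMES and 1 KlHET control library. At its median of 17 counts, its counting error was 24.3%, against a coefficient of variation of 56.2%. For both miR-30b-5p and miR-30e-5p the spread between libraries was thus larger than the counting error, and small differences were hard to detect. How much of this spread came from depth was not tested.

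The first comparison asked whether NMES changed the family in EVs. No member passed the test for a difference between NMES and control mice, in either genotype or in both together, and the ranges of all 5 members overlapped. miR-30d-5p ranged from 4011 to 10740 CPM (median 6385) in NMES mice and from 3239 (J3517) to 11090 CPM (median 6123) in control mice. miR-30a-5p ranged from 2247 to 5895 CPM (median 3962) in NMES mice and from 1803 to 7836 CPM (median 4077) in control mice. These medians over both genotypes were nearly the same in stimulated and unstimulated mice for both abundant members. miR-30c-5p ranged from 1171 to 2066 CPM (median 1426) in NMES mice and from 828 to 3811 CPM (median 1533) in control mice. miR-30b-5p ranged from 0 to 1269 CPM (median 597) in NMES mice and from 0 to 1182 CPM (median 646) in control mice. miR-30e-5p ranged from 57.7 to 742 CPM (median 270) in NMES mice and from 104 to 1099 CPM (median 375) in control mice. For miR-30c-5p, the 14 NMES libraries spanned a narrower range than the 14 control libraries, and its 2 highest control values were in WT control mice.

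With both genotypes averaged, the log2 difference NMES minus control was 0.03 for miR-30d-5p (SE 0.16, 95% interval -0.29 to 0.35) and 0.01 for miR-30a-5p (SE 0.19, -0.39 to 0.40). The difference was -0.22 for miR-30c-5p (SE 0.22, -0.66 to 0.22) and -0.13 for miR-30b-5p (SE 0.38, -0.91 to 0.64). miR-30e-5p had the largest difference, -0.71 (SE 0.38, -1.49 to 0.06), with an unadjusted p of 0.0699 and an adjusted p of 0.327 in edgeR's quasi-likelihood test with Benjamini-Hochberg adjustment over the 129 entries, and its level was under the control median in 8 of the 14 stimulated mice. At an adjusted p under 0.05, 0 of 5 members were called, beside 0% of the 129 entries. At an unadjusted p under 0.05, edgeR marked 22 entries (17.1%) and 0 members, and DESeq2 called 0 entries after adjustment. The median difference over all 129 entries was -0.18, so that relative to it the members stood at 0.22 (miR-30d-5p), 0.19 (miR-30a-5p), 0.05 (miR-30b-5p), -0.04 (miR-30c-5p) and -0.53 (miR-30e-5p). The signs of the differences of miR-30a-5p, miR-30b-5p, miR-30c-5p and miR-30d-5p turned under other scalings of the libraries.

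Within genotypes miR-30d-5p moved in opposite directions, and neither difference was called. Its median was 6669 CPM in WT NMES and 8015 CPM in WT control mice, and 5839 CPM in KlHET NMES and 4187 CPM in KlHET control mice. Below the WT control median lay 5 of 6 WT NMES libraries, and above the KlHET control median 7 of 8 KlHET NMES libraries. The log2 difference was -0.14 in WT mice (adjusted p = 0.857 in edgeR) and 0.20 in KlHET mice (0.978). In WT mice, 0 of 5 members were called by edgeR, beside 0% of 129 entries, with 22 entries (17.1%) and 0 members at an unadjusted p under 0.05 and 4 entries but no member called by DESeq2. The member with the smallest p was miR-30e-5p, which averaged 287 ± 134 CPM in WT NMES mice and 491 ± 274 CPM in WT control mice (SD, n = 6 each), a log2 difference of -0.83 (SE 0.56, adjusted p = 0.499 in edgeR). In KlHET mice, 0 of 5 members were called, beside 4.65% of 129 entries, with 14 entries (10.9%) and 0 members at an unadjusted p under 0.05 and 1 entry called by DESeq2. There miR-30e-5p averaged 346 ± 245 CPM in KlHET NMES mice and 518 ± 345 CPM in KlHET control mice (SD, n = 8 each), a log2 difference of -0.59 (SE 0.51, adjusted p = 0.966 in edgeR). Values below the median of the control mice of the same genotype were found in 5 of 6 WT NMES libraries and 4 of 8 KlHET NMES libraries for this arm.

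The response to NMES was not shown to differ between genotypes for any member. In the test of the difference of the NMES effects, KlHET minus WT, 0 of 5 members were called by edgeR, beside 2.33% of 129 entries, with 21 entries (16.3%) and 0 members at an unadjusted p under 0.05 and 1 entry called by DESeq2. The member with the smallest p was miR-30b-5p. It averaged 721 ± 481 CPM in KlHET NMES mice and 551 ± 292 CPM in KlHET control mice (n = 8 each), and 502 ± 231 CPM in WT NMES mice and 732 ± 347 CPM in WT control mice (n = 6 each). The difference of the effects was 0.82 on the log2 scale (SE 0.76, adjusted p = 0.625 in edgeR), with a 95% interval from -0.73 to 2.37. For miR-30d-5p it was 0.34 (SE 0.31, -0.31 to 0.98, adjusted p = 0.625 in edgeR).

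**Figure D3:**
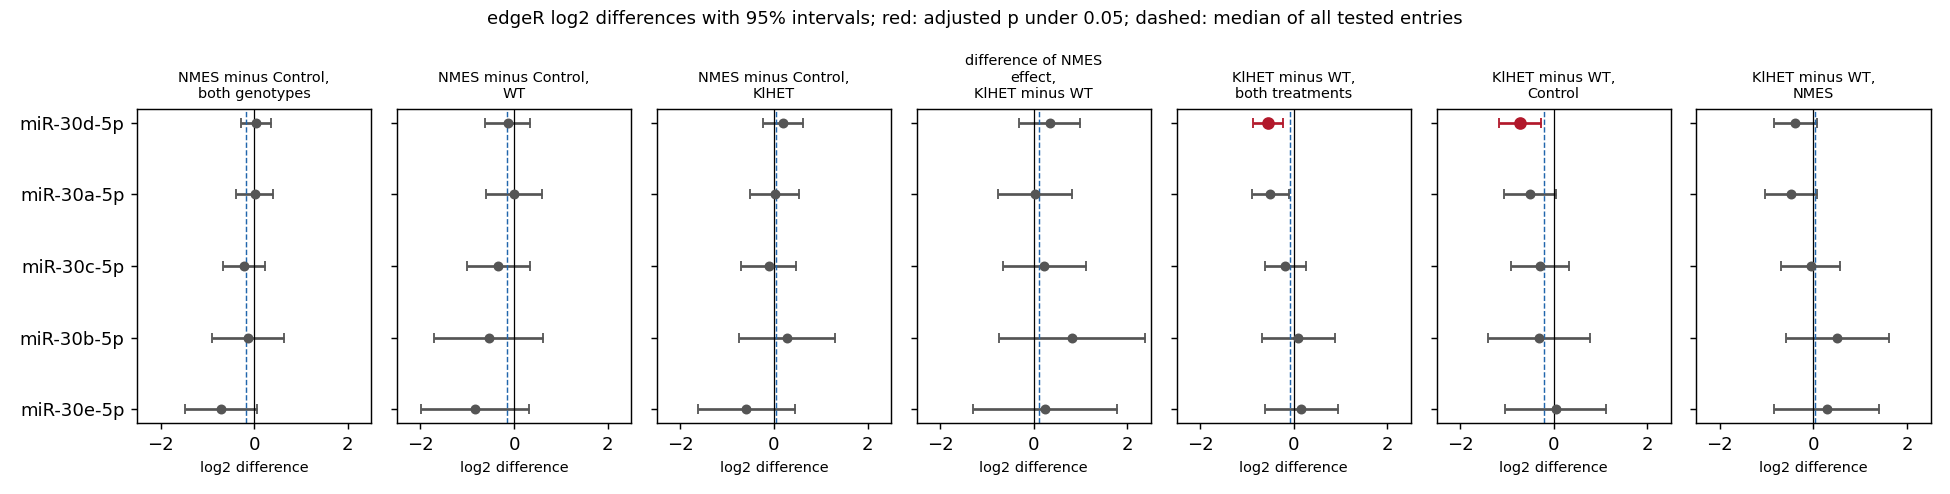
edgeR log2 difference of each miR-30 5p arm with its 95% interval in 7 comparisons over 28 libraries; red points have an adjusted p under 0.05 and the dashed line is the median of the 129 tested entries. miR-30d-5p is red in KlHET minus WT over both treatments (-0.55) and in control mice (-0.72), and no other interval belongs to a called difference.

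The second comparison asked how the family differed between KlHET and WT mice. miR-30d-5p, the most abundant member, was lower in KlHET EVs, and its neighbour in level, miR-30a-5p, had a difference of like size that did not pass the test. miR-30d-5p ranged from 3239 to 7581 CPM (median 5237) in KlHET mice and from 4763 to 11090 CPM (median 7257) in WT mice. The lowest KlHET value came from 7 counts in J3517, the library with the low scaling factor. The ranges overlapped, yet 15 of 16 KlHET libraries lay below the WT median and 7 lay below the lowest WT library. Its mean was 5264 ± 1334 CPM in KlHET mice (SD, n = 16) and 7737 ± 1914 CPM in WT mice (SD, n = 12), a log2 difference of -0.55 (SE 0.16, 95% interval -0.87 to -0.23) with an adjusted p of 0.00838 in edgeR. The gap between the means is larger than the SD of either genotype. The call was lost with TMMwsp, with library size alone and without the filter on low counts, as given below.

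miR-30a-5p ranged from 1803 to 5495 CPM (median 3054) in KlHET mice and from 3469 to 7836 CPM (median 4260) in WT mice. Of the 16 KlHET libraries, 12 lay below the WT median and 9 below the lowest WT library. The log2 difference was -0.50 (SE 0.19, -0.89 to -0.11) with an adjusted p of 0.0509 in edgeR, just short of the threshold. The other members had wider intervals that spanned 0. The log2 difference was -0.18 for miR-30c-5p (SE 0.22, -0.62 to 0.27), 0.10 for miR-30b-5p (SE 0.38, -0.67 to 0.88) and 0.16 for miR-30e-5p (SE 0.38, -0.61 to 0.94), each with an adjusted p between 0.601 and 0.862 in edgeR. The signs of these 3 differences turned under another scaling.

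The call of 1 of 5 members, miR-30d-5p, stands beside 27.9% of the 129 entries called (14% higher and 14% lower in KlHET mice), so that the share among the members was not above that of miRNA entries at large. That balance depended on the scaling: 25 entries were higher and 9 lower with TMMwsp, 5 higher and 11 lower with library size alone, and 5 higher and 26 lower with scaling over all RNA classes, against 18 each with TMM. The median difference was -0.18 over the members and -0.08 over all 129 entries. Entries outside the family moved with genotype as well. The liver miRNA miR-122-5p was lower in KlHET mice (24232 CPM against 65094 CPM in WT mice on average, adjusted p = 0.00645 in edgeR), with a range of 3114 to 41352 CPM in KlHET mice and 17698 to 202238 CPM in WT mice. miR-126a-3p, known from platelets and endothelium, was lower too (3942 CPM in KlHET mice, 6209 CPM in WT mice, adjusted p = 0.00789), and it was 1 of 2 tested entries called on the list of 4 for platelets and leukocytes, whose summed level ran from 3249 to 9802 CPM in KlHET mice and from 4297 to 10393 CPM in WT mice. miR-192-5p, known from kidney, liver and gut epithelium, was higher (8737 CPM in KlHET mice, 4199 CPM in WT mice, adjusted p = 0.00188) and was 1 of 3 tested entries called on the list of 5 for kidney and epithelium, whose summed level ran from 3778 to 16898 CPM in KlHET mice and from 3164 to 10204 CPM in WT mice. On this list miR-194-5p was higher (384 CPM in KlHET mice, 224 CPM in WT mice) and miR-200a-3p lower (623 and 779 CPM). Neither was called (adjusted p of 0.223 and 0.605 in edgeR). On the erythrocyte, muscle and neuron lists 0 of 4, 0 of 2 and 0 of 2 tested entries were called. No listed miRNA was at 0 in all libraries, and the part of these sources in the miR-30d-5p difference was not tested.

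Split by treatment, the difference of miR-30d-5p passed the test in control mice. There its level ran from 3239 (J3517) to 7581 CPM (median 4187) in 8 KlHET libraries and from 4763 to 11090 CPM (median 8015) in 6 WT libraries. All 8 KlHET control libraries lay below the WT control median and 5 lay below the lowest WT control library. The log2 difference was -0.72 (SE 0.22, -1.17 to -0.27) with an adjusted p of 0.0147 in edgeR, and 1 of 5 members was called, beside 24.8% of 129 entries. This call was lost with TMMwsp (-0.49, adjusted p = 0.128), library size alone (-0.74, 0.325), no filter on low counts (-0.78, 0.346), a fit of only the groups compared (-0.65, 0.0817) and without A3206 and J3517 together (-0.61, 0.0634), all lower in KlHET mice. That of miR-30a-5p was -0.51 (SE 0.27, adjusted p = 0.169). The median over all entries in control mice was -0.21, so miR-30d-5p stood at -0.51 relative to it. In NMES mice, miR-30d-5p ran from 4011 to 7100 CPM (median 5839) in 8 KlHET libraries and from 6089 to 10740 CPM (median 6669) in 6 WT libraries. Here 7 of 8 KlHET NMES libraries lay below the WT NMES median and 5 below the lowest WT NMES library. The log2 difference was -0.39 (SE 0.22, -0.84 to 0.07, adjusted p = 0.347 in edgeR), and that of miR-30a-5p was -0.49 (SE 0.27, adjusted p = 0.337). In NMES mice 0 of 5 members were called, beside 3.1% of 129 entries, with 20 entries (15.5%) and 0 members at an unadjusted p under 0.05 and 17 entries but no member called by DESeq2. The difference between both treatments is the interaction described above, in which miR-30d-5p was not called.

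The call of miR-30d-5p over both treatments held when any 1 of the 28 libraries was left out, with log2 differences of -0.58 to -0.43 and adjusted p-values of 0.00467 to 0.0404 in edgeR. It was lost with TMMwsp scaling (-0.26, adjusted p = 0.259), with library size alone (-0.62, adjusted p = 0.231) and without the filter on low counts (-0.64, adjusted p = 0.45). Under these and the other scalings the median of all entries moved as well, and miR-30d-5p stood -0.47 to -0.53 from that median under TMM, TMMwsp, DESeq2 size factors, library size alone and scaling over all RNA classes. A change of scaling moves all entries by about the same amount. The narrow range therefore follows from the subtraction and does not show that the call holds under these scalings. In control mice the log2 difference of miR-30d-5p stayed between -0.80 and -0.58 when single libraries were left out, while its adjusted p in edgeR crossed the threshold without WT control replicate 4 (-0.64, adjusted p = 0.0526), 5 (-0.58, 0.0698) or 6 (-0.59, 0.0684). The call of miR-30a-5p over both treatments was gained without KlHET control replicate 4 or 7 or KlHET NMES replicate 2 or 6, with adjusted p-values of 0.0255 to 0.0423.

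**Figure D4:**
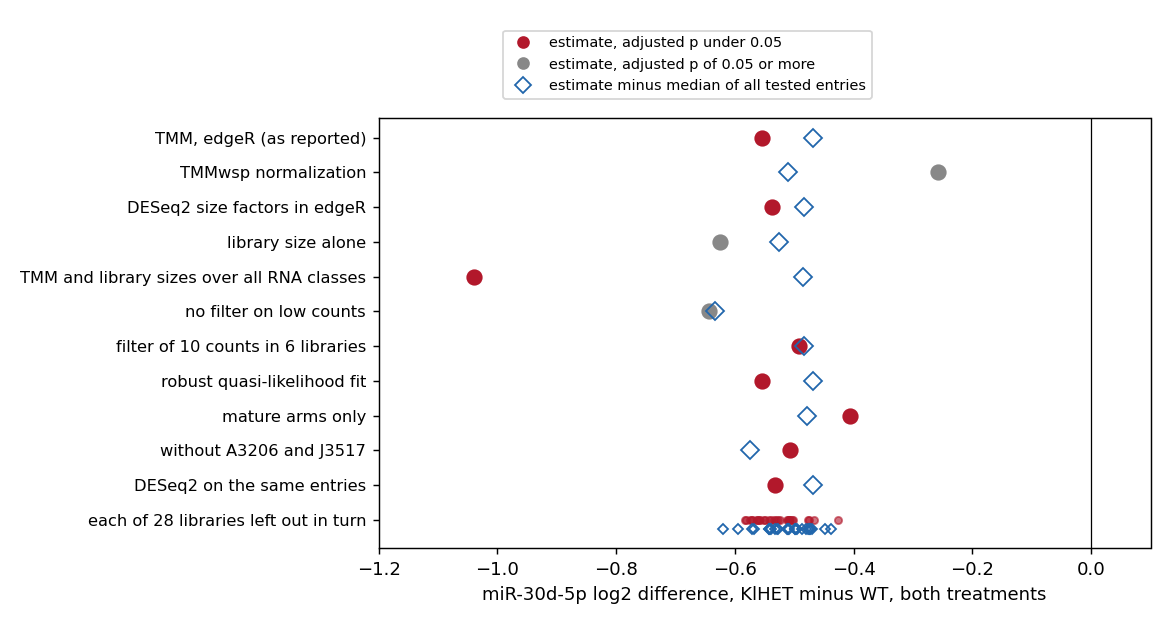
log2 difference of miR-30d-5p, KlHET minus WT over both treatments, as reported, under 10 other settings and with each of 28 libraries left out in turn (lowest row); filled points are the estimates, red where the adjusted p is under 0.05, and open diamonds are the estimates minus the median of all tested entries. Estimates run from -1.04 with scaling over all RNA classes to -0.26 with TMMwsp, and the diamonds lie closer together than the estimates. Across scalings this closeness follows from the subtraction, since a change of scaling moves all entries by about the same amount.

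The opposite arms of the hairpins were mostly rare. miR-30a-3p (764 counts) and miR-30e-3p (484 counts) passed the filter, and the other 3p arms had 28 counts (miR-30c-2-3p), 14 (miR-30b-3p), 9 (miR-30c-1-3p) and 1 (miR-30d-3p) over all libraries. For miR-30a the 5p arm was the more abundant, with a ratio of total counts of 4.23 over the 3p arm and higher counts in 28 of 28 libraries. For miR-30e the order was the other way round, with miR-30e-3p above miR-30e-5p in 19 libraries, below it in 8 and equal in 1. The seeds of the 3p arms differ from that of the 5p arms, and these sequences show how alike miR-30a-3p and miR-30e-3p are, with the seed in capitals.
miR-30a-3p: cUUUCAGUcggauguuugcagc
miR-30e-3p: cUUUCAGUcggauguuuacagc

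They differ at 1 of 22 positions, G18A (miR-30a-3p first). miR-30a-3p lies at chr1:23272315-23272336 on the plus strand and miR-30e-3p at chr4:120772618-120772639 on the minus strand. The pair had equal counts above 0 in 6 of 28 libraries, with 26, 16, 11, 7, 5 and 2 counts each. In 18 libraries miR-30a-3p was the higher and in 3 the lower. The corresponding 5p arms, which also differ at 1 base, were never equal, and miR-30a-5p had the higher count in 28 of 28 libraries. Whether reads of one 3p arm were counted for the other was not tested. In control mice miR-30e-3p averaged 346 ± 330 CPM in KlHET libraries (n = 8) and 1012 ± 602 CPM in WT libraries (n = 6), with an unadjusted p of 0.0434 and an adjusted p of 0.122 in edgeR. At an unadjusted p under 0.05 this comparison marked 49 of 129 entries (38%). This arm was at 0 in 3 of the 8 KlHET control libraries, and its highest WT control value was 2127 CPM in A3206. The precursor entries of the 6 hairpins were rarer still: mir-30a had 159 counts, mir-30d 103, mir-30e 17, mir-30b 6, mir-30c-2 2 and mir-30c-1 1, and none passed the filter.

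**Figure D5:**
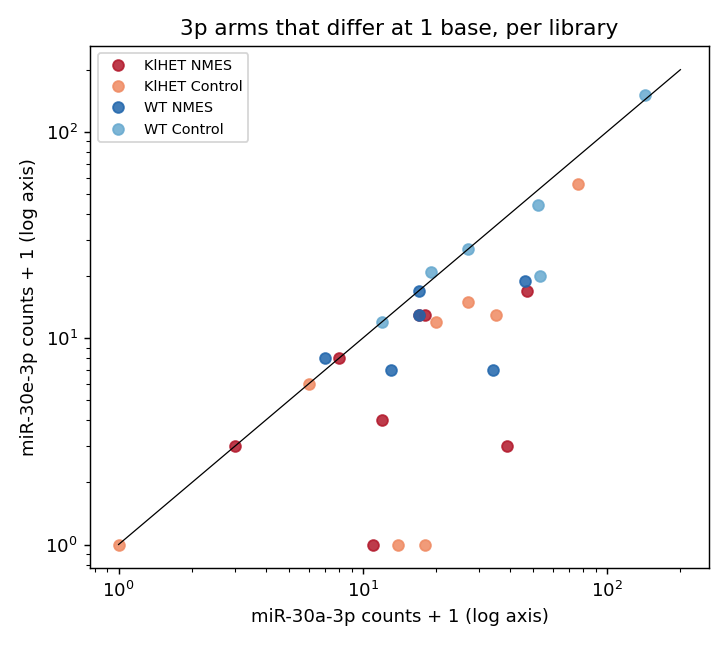
Counts of miR-30e-3p against miR-30a-3p, 1 point per library, on log axes after adding 1; the line marks equal counts. Points lie on the line for 6 libraries with equal counts above 0 and for 1 library with 0 of both, and 18 of 28 lie below it.

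Across mice the members varied together only in part. Over the 28 libraries, 10 pairs of members were compared on log2 CPM, and 4 pairs had an adjusted permutation p under 0.05 (100000 resamples, two-sided, adjusted over the 10 pairs). The closest pair was miR-30c-5p with miR-30e-5p, with Pearson r = 0.53 (p = 0.00314, adjusted p = 0.0314) and Spearman rho = 0.50 (p = 0.00694, adjusted p = 0.0694), and r = 0.44 without the 2 libraries farthest from the median of miR-30c-5p. For miR-30a-5p with miR-30d-5p, r was 0.49 (p = 0.00804, adjusted p = 0.0402) and rho 0.45 (p = 0.0178, adjusted p = 0.0891), and r = 0.55 without the 2 farthest libraries. After group means were subtracted, r of miR-30a-5p with miR-30d-5p was 0.24 (adjusted permutation p = 0.325). miR-30a-5p with miR-30b-5p (r = 0.44, rho = 0.31, r = 0.53 without the 2 farthest) and with miR-30c-5p (r = 0.44, rho = 0.32, r = 0.39 without the 2 farthest) each had an adjusted permutation p of 0.0489 for r and 0.265 for rho. By rank, no pair passed. Without WT control library A3206 and KlHET control library J3517, 0 of 10 pairs passed by r, the lowest adjusted permutation p being 0.14. Within genotypes, where no test was made, r of miR-30a-5p with miR-30d-5p was 0.06 over 16 KlHET libraries and 0.70 over 12 WT libraries. That of miR-30c-5p with miR-30e-5p was 0.42 over the KlHET and 0.73 over the WT libraries. All points share their library's scaling factor.

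The tested entries most like the summed family over the 28 libraries, by Pearson r on log2 CPM among 122 entries outside the miR-30 hairpins, were miR-100-5p (0.64), miR-126a-3p (0.59), miR-10b-5p (0.59), the precursor entry mir-140 (0.58) and let-7e-5p (0.54). After each group's mean was subtracted, r was 0.37 for miR-100-5p, 0.36 for miR-126a-3p, 0.28 for miR-10b-5p, 0.45 for mir-140 and 0.37 for let-7e-5p. Without A3206 and J3517, r of let-7e-5p was 0.18 and those of the other 4 were 0.54 to 0.62. Other entries were closer to the family in these checks. The precursor entry mir-142a (0.62) and miR-191-5p (0.60) were above all 5 after the subtraction. miR-99b-5p (0.71) was above all 5 without A3206 and J3517.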

How the data were processed

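Small non-coding RNA of plasma EVs was sequenced in 28 libraries, and groups were taken from the genotype and treatment labels. The deposited values are raw counts: the authors sequenced single ends, mapped them to mm10 with STAR 2.5.3a and counted with COMPSRA 1.0.3. The processing notes also name DESeq2 1.42.1. The annotation, adapter trimming and the handling of multi-mapping reads are not given in the sources used here. The table is titled as circRNA but holds all RNA classes.

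Of 1240 miRNA entries, 129 (110 mature, 19 precursor) passed filterByExpr by group. Counts were scaled with TMM and tested with edgeR's quasi-likelihood model (edgeR 4.0.16, limma 3.58.1, R 4.3.3), with 1 mean per group over all libraries and Benjamini-Hochberg adjustment over the 129 entries. SE is the absolute log2 difference divided by the square root of F. CPM use TMM-scaled library sizes. The log2 CPM of the correlations carry a prior count of 2. DESeq2 1.42.0, other scalings and filters, and the removal of libraries were alternatives. The fitting steps were tested on simulated data. Python 3.11.15, numpy 2.4.6, scipy 1.17.1, pandas 2.3.3 and matplotlib 3.10.9 were used otherwise. Named entries are the 5 members, the other entries of their hairpins, other miRNAs with the seed and the 5 entries most like the family. Also named are miR-8117, entries above these 5 in the checks and the marker miRNAs called between genotypes. These were singled out after their values were seen. The rule for the members uses only their names, but the family, the marker lists and the alternatives were picked when earlier results of these data were known.

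Each library is 1 mouse, and miR-30 counts of 15 to 1710 per library limit the precision. Intervals of shares cover counting error only, and since reads carry no molecular identifiers they may understate it. Klotho mRNA was not analysed here, so genotype rests on the labels.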

Additional observations from a re-analysis of the deposited data

Results flagged for a closer look

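One value stood apart from its group. miR-30d-5p was at 10740 CPM in WT NMES replicate 5 (library A3207), against 6089 to 7511 CPM in the other 5 WT NMES libraries, and the gap made up 0.694 of the group's range, above the critical value of 0.625 for 6 libraries. Of 20 groups of libraries (5 members in 4 groups) 1 was marked in this way, and chance marks about 1 in 20. Without this library the difference of miR-30d-5p between KlHET and WT mice over both treatments was -0.43, with an adjusted p of 0.0404 in edgeR.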

How the results depend on the processing

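The count of 0 members called in each NMES comparison, in the test of the difference of the NMES effects and in KlHET against WT NMES mice held under all settings run. In KlHET against WT mice over both treatments, the count of 1 member became 0 with TMMwsp, library size alone or no filter on low counts, and 2 with scaling over all RNA classes (miR-30a-5p -0.95, adjusted p = 0.0438 in edgeR). Entries called in all were 34 of 129, 16 of 129, 32 of 1093 and 31 of 129, in that order. With scaling over all RNA classes the median difference of all entries was -0.56. In control mice the count of members became 0 with the first 3 of these settings (miR-30d-5p -0.49, -0.74 and -0.78), without A3206 and J3517 together (-0.61) and in a fit of only the groups compared (-0.65). There 31 of 129, 14 of 129, 47 of 1093, 20 of 133 and 20 of 111 entries were called, in that order. With single libraries left out, the count of members ran from 1 to 2 over both treatments, from 0 to 1 in control mice and stayed at 0 elsewhere. In the runs with 2 members, 34 to 39 of 127 to 129 entries were called. In the runs with 0 members in control mice, 25 to 31 of 135 to 136 entries were called. The 4 correlated pairs became 0 without A3206 and J3517 and 3 after group means were subtracted.

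Signs turned for small differences. For NMES minus control over both genotypes, miR-30a-5p was at -0.000505 with DESeq2 size factors, -0.43 with scaling over all RNA classes and -0.015 in DESeq2. miR-30b-5p was at 0.082 and miR-30c-5p at 0.083 with library size alone, and miR-30d-5p was at -0.32 with scaling over all RNA classes. For KlHET minus WT over both treatments, miR-30c-5p was at 0.15 with TMMwsp, and miR-30b-5p and miR-30e-5p were each at -0.40 with scaling over all RNA classes. Leaving out single libraries gave NMES differences of -0.049 to 0.21 (miR-30a-5p), -0.21 to 0.11 (miR-30b-5p), -0.26 to 0.030 (miR-30c-5p) and -0.0072 to 0.22 (miR-30d-5p), and a KlHET minus WT difference of -0.22 to 0.0091 for miR-30c-5p. The causes were not tested.

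Counts over all entries moved too. KlHET against WT entries called were 16 with library size alone against 36 over both treatments. In control mice they were 14 with library size alone and 20 without A3206 and J3517 or with only the groups compared, against 32. In NMES mice they were 8 with TMMwsp, 7 with no filter, 9 without A3206 and J3517 and 17 with DESeq2, against 4. For NMES, calls were 14 with no filter over both genotypes against 0, and in WT mice 13 with scaling over all RNA classes, 19 with no filter and 4 with DESeq2 against 0. In KlHET mice they were 0 with library size alone or only the groups compared, 20 with no filter, 3 with mature arms only and 1 with DESeq2, against 6. For the difference of the effects they were 1 with library size alone or DESeq2, 29 with no filter and 0 without A3206 and J3517, against 3.

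No paired analysis was possible because the labels give no replicate numbers, and the numbers used here follow accession order within each group and tie no mice together. Counting error was largest for miR-30b-5p and miR-30e-5p.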
